A study of Mus musculus with 4 samples.

Results

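The broad domains of 3 to 5 kb are stretches of promoter DNA over which p53 immunoprecipitate (IP) exceeded input in the mouse embryonic stem cell line R1E. They were chosen by their own signal and width. Each value is log2 of IP over input for 1 array probe, with the array median set to 0, so that 1 means 2-fold over the median probe. A window held 3 neighbouring probes within 1000 bp and counted as bound if it averaged 1 or more, with 2 of its probes or more at that level, in either array of a design. Joining bound windows with overlaps or gaps of up to 500 bp gave 11210 regions, and the 541 regions from 3000 to 5000 bp wide (4.83%) are the domains described here. Of these, 264 came from design 1 and 277 from design 2. Since signal in both conditions chose the members and set their ends, their level, their width and the low values just outside them are descriptions and not findings.

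Cells in medium with leukaemia inhibitory factor were left untreated or given 0.5 µM adriamycin, a drug that damages DNA, both for 8 h, per the labels. Chromatin of formaldehyde-fixed cells was precipitated with a p53 antibody. The stated aim was to find where p53 binds without and with DNA damage. Both conditions went once onto each of 2 promoter array designs, with IP DNA in red (Cy5) and input DNA in green (Cy3) and no dye swap. The designs cover different loci, so they are not replicates of each other. Since each condition had a lone array per design, on its own slide, nothing was tested, and slide and condition cannot be told apart. An SD below is a spread over the probes of 1 domain or over domains, and neither is a replicate error.

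p53 is a transcription factor that is stabilised when DNA is damaged and that binds as a tetramer to response elements made of a pair of short palindromic motifs. In embryonic stem cells it is known to act in the DNA damage response and to lower the expression of pluripotency factors such as Nanog. IP of a factor at an isolated element usually gives a peak about as wide as the sonicated fragments. Positions are given as the array states them, on a build that the sources used here do not name. Gene names and sequences of the domains were therefore not used.

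The 4 arrays held 236817 usable probes on design 1 and 236686 on design 2. The noise of 1 log ratio, taken between adjacent probes beyond bound regions, had an SD of 0.67 untreated and 0.55 with adriamycin on design 1, and 0.68 and 0.42 on design 2. Probes not well above background in either channel made up 1.90% to 5.98% of an array. Turning the sign of every value and applying the same rule gave 28 depleted regions of 3 to 5 kb, against the 541 enriched ones. Over all widths, depleted and enriched regions were about as many (11549 and 11210). These counts use the values and the rule that chose the domains, and log ratios need not spread evenly about the median. They are a description and not a measure of false calls.

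The domains had a median width of 3591 bp and held 11 to 32 probes, with a median of 20. Their level, the mean over all probes of a domain, ran from 0.41 to 3.76 in untreated cells with a median of 1.85. With adriamycin it ran from 0.22 to 3.40 with a median of 1.66. By design the untreated medians were 1.87 and 1.82 and the adriamycin medians 1.61 and 1.73. In a median domain of design 1, 83.3% of probes reached 1 untreated and 75.9% with adriamycin, while on design 2 the order turned, with 81.2% and 83.3%. Signal was seldom at threshold throughout, since every probe reached 1 in 16 domains untreated and in 10 with adriamycin. Of the 541, 401 were 1 unbroken block of overlapping bound windows, 124 joined 2 blocks and 16 joined 3 or 4.

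The highest domain, chr17:85523908-85528818, was a plateau. Its 32 probes averaged 3.76 ± 0.73 (SD over probes) untreated and 3.40 ± 0.44 with adriamycin, and no probe was below 2.28 in either array. In 5 equal parts from left to right its untreated means were 4.03, 3.89, 3.79, 3.94 and 3.10, and its adriamycin means were 3.10, 3.55, 3.63, 3.57 and 3.16. No part of it fell near the threshold, and probes beyond a gap on its right were as high (3.47 and 3.43 between 500 and 1000 bp outside its ends). Its right end thus lies where probes were too far apart to form a window.

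The next highest, chr4:114553371-114556782, averaged 3.57 ± 1.18 and 3.21 ± 1.09 over 19 probes. It was 1 unbroken block but uneven, with untreated means by part of 1.76, 4.05, 4.10, 2.73 and 4.14 and adriamycin means of 1.74, 3.86, 3.49, 2.21 and 3.86. The other 4 of the 6 highest lay at chr19:24965588-24969173, chr5:139792246-139796492, chr1:157501888-157506717 and chr6:85151657-85155966. Their untreated levels were 3.52 ± 1.09, 3.28 ± 0.73, 3.31 ± 1.10 and 3.37 ± 0.59, and their adriamycin levels 3.06 ± 0.95, 3.20 ± 0.76, 3.09 ± 1.02 and 2.98 ± 0.61. Their differences, adriamycin minus untreated, ran from -0.47 to -0.08. The SD of the difference over probes was 0.59, 0.50, 0.43 and 0.31 in the same order. Only at chr6:85151657-85155966 was the difference (-0.38) larger than this SD, with 3 of 25 probes higher. The differences of all 6 highest domains turned to between 0.10 and 0.54 when the arrays were scaled to equal spread. The domain at chr6:85151657-85155966 was the most even, between 3.13 and 3.57 in every part untreated and between 2.84 and 3.34 with adriamycin. It had no probe within 1000 bp of either end.

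**Figure D1:**
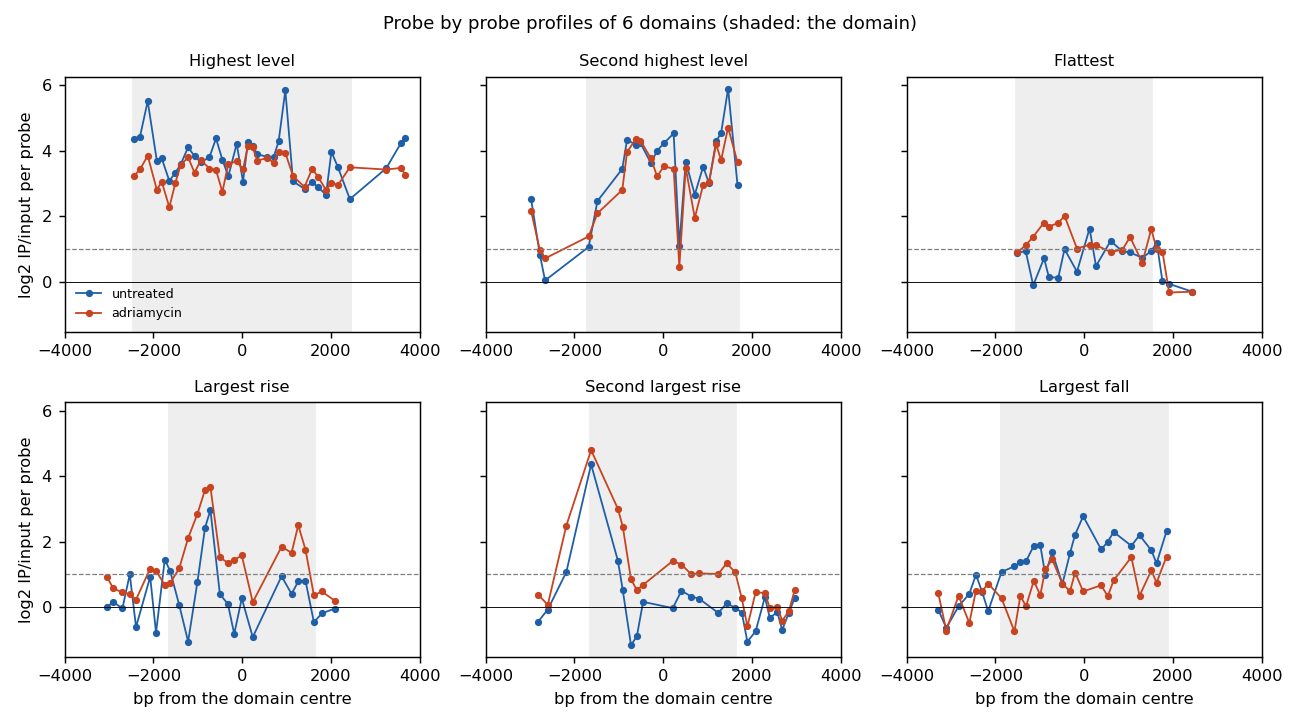
Log2 IP/input of each probe (y axis) against its distance in bp from the domain centre (x axis) for 6 domains, untreated in blue and adriamycin in red, with the domain shaded and the threshold of 1 dashed. The highest domain stays above 2.28 throughout, the 2 largest rises have a probe at 2.96 or more in both arrays beside a stretch that is lower in untreated cells, and the largest fall is lower with adriamycin at 18 of its 20 probes.

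Averaged over domains, the inner profile was a broad dome. With the width cut into 10 equal steps, the untreated mean of design 1 went from 1.20 in step 1 to 2.34 in step 6 and back to 1.18 in step 10, and the adriamycin mean from 0.94 to 2.10 and back to 0.90. On design 2 the untreated mean went from 1.24 to 2.29 in step 5 and back to 1.15, and the adriamycin mean from 1.10 to 2.17 and back to 1.02. The averaged profile was thus about as steep on both sides. Steps ran from left to right along the chromosome, without regard to gene direction. Averaging can therefore even out lopsided single domains, and nothing is read from the likeness of the sides. In this scaling adriamycin lay below untreated in every step of both designs. The third of the width around the centre had a median of 2.30 untreated and 2.11 with adriamycin, against 1.26 and 1.07 in the 500 bp inside the ends. The centre was higher than the ends in both arrays in 468 of 541 domains and lower in both in 29. Since the rule ends a domain where windows leave the threshold, ends lower than the centre follow in part from it, and the dome is a description.

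**Figure D2:**
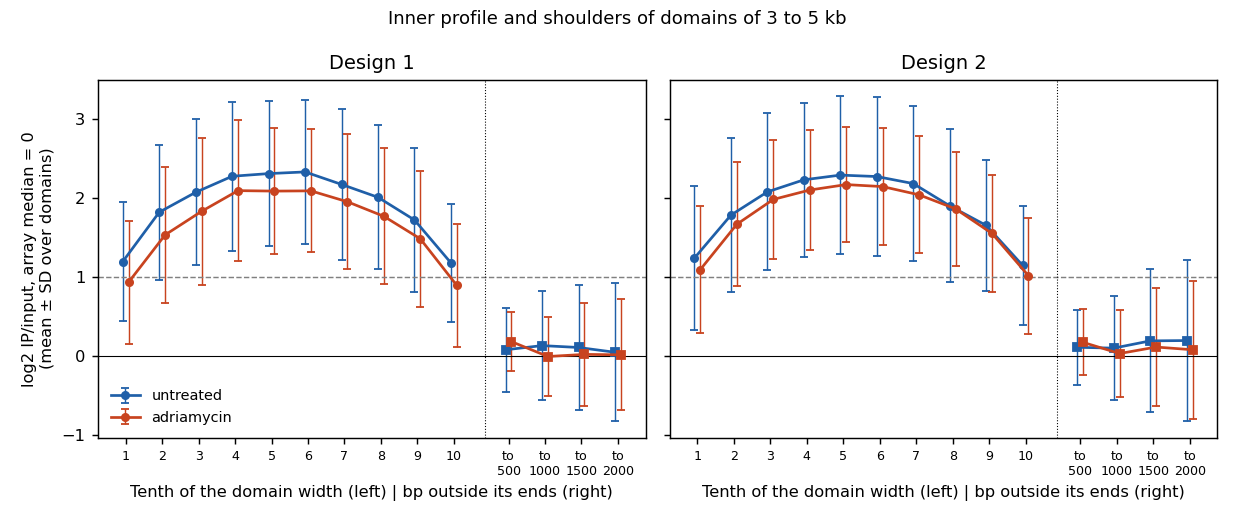
Mean log2 IP/input (y axis, bars are SD over domains) in each of 10 equal steps of the domain width and in 500 bp steps out to 2000 bp outside the ends (x axis), for the 264 domains of design 1 and the 277 of design 2, untreated in blue and adriamycin in red. The profile rises from about the threshold at the ends to between 2.10 and 2.34 in the middle, and the means outside lie between -0.00 and 0.20.

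The shoulders, the probes within 500 bp outside the ends, were near the array median. Their mean was 0.08 ± 0.53 untreated and 0.18 ± 0.38 with adriamycin on design 1 (SD over 249 domains), and 0.11 ± 0.48 and 0.18 ± 0.42 on design 2 (258 domains). They were higher with adriamycin in 138 of the 249 domains and in 140 of the 258. Between 500 and 1000 bp, adriamycin was higher in 109 of 250 and in 124 of 250. With both sides of a domain weighted equally, the median shoulder was 0.12 untreated and 0.21 with adriamycin, but with a common input for both arrays the order turned, to 0.18 and 0.13. Weighted in this way, shoulders reached 0.5 in both arrays in 42 domains and were below 0 in both in 89. The sharp step at the ends follows from the region rule, which ends a domain where windows leave the threshold. The probes did not always reach that far: 223 domains had no probe within 1000 bp on 1 side and 15 on both, and 129 had another bound region within 2000 bp.

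Single domains had sharper tops than the averaged dome. This follows at least in part from the measures and is a description. A top is the highest of many windows, while the dome averages domains whose tops lie at different places. The top of a domain, its highest window, had a median of 2.99 untreated and 2.64 with adriamycin. Around it, windows stayed within 1 log2 unit of the top over a median of 1684 bp untreated and 2214 bp with adriamycin. This top width was greater with adriamycin in 348 domains and greater untreated in 129. The untreated arrays also had the larger noise, which raises the highest of many windows, and its part in the sharper untreated tops was not tested. Aligned on the untreated top, the mean at the top was 3.05 untreated and 2.54 with adriamycin on design 1, and 3.11 and 2.51 on design 2. Aligned on the adriamycin top, the arrays were close, at 2.80 and 2.74 on design 1 and at 2.75 and 2.71 on design 2. Each alignment favours the array whose highest window set it, so neither contrast is read as a difference between the conditions.

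**Figure D3:**
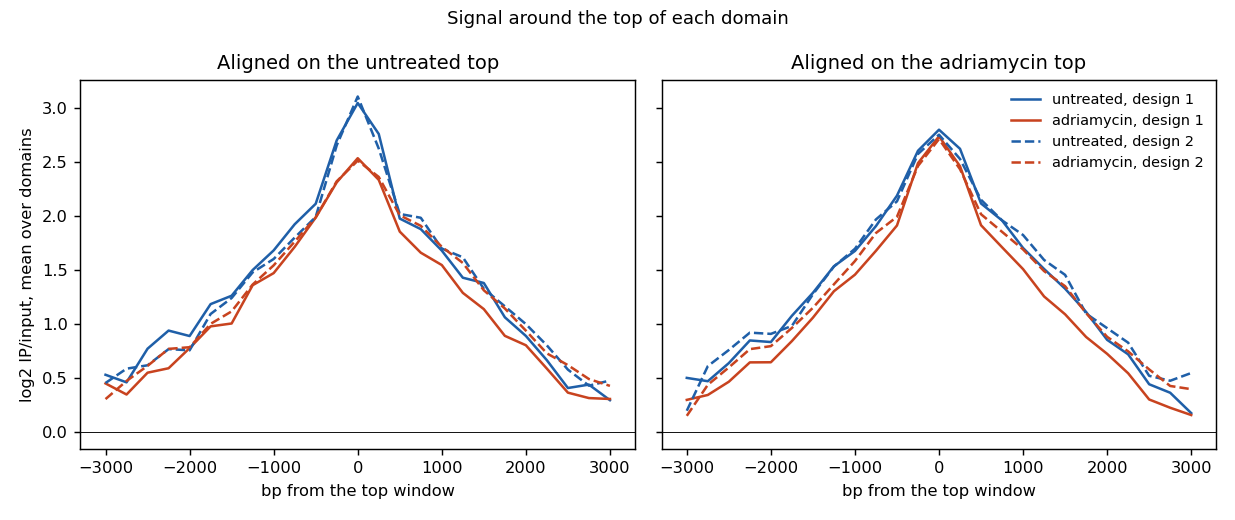
Mean log2 IP/input over domains (y axis) against the distance in bp from the top window (x axis, steps of 250 bp), aligned on the untreated top (left) or the adriamycin top (right), untreated in blue and adriamycin in red, design 1 solid and design 2 dashed. Aligned on the untreated top, the untreated means (3.05 and 3.11) stand above the adriamycin means (2.54 and 2.51). Aligned on the adriamycin top, all 4 lie between 2.71 and 2.80. Each alignment favours the array whose highest window set it.

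The top was the same window in both arrays in 188 of the 541 domains, within 500 bp in 366 and over 1000 bp apart in 92. It lay in the third of the width around the centre in 293 domains untreated and in 300 with adriamycin. Probe by probe, the untreated and adriamycin profiles of a domain correlated with a median r of 0.73 over its probes, which share their sequence and their position. The correlation was above 0.8 in 181 domains and below 0 in 8.

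Most domains had 1 summit, counting summits as window maxima separated by a dip of at least 1. There was 1 summit in 419 domains untreated and in 501 with adriamycin, and 2 or more in both arrays in 24. At a dip of 0.7 the domains with 1 summit were 311 and 431, and at 1.5 they were 510 and 532. The gap between the conditions also moved with the processing. At a dip of 1 the counts were 456 and 483 with equal spread, 471 and 495 with a common input and 511 and 525 with normexp. The authors' deposited log2 ratios gave 446 and 493, and loess gave 388 and 489. The SD of the difference between 2 window means from probe noise was 0.55 and 0.45 on design 1 and 0.56 and 0.35 on design 2, and its part in the greater number of summits in untreated cells was not tested. Among the 29 domains with at least 4 summits over both arrays, chr11:5964891-5969745 had 2 untreated and 3 with adriamycin. Its means by part stayed low, from 0.48 to 1.39 untreated and from 1.06 to 1.57 with adriamycin. Both chr1:74831207-74835247 and chr1:188404300-188407587 had 2 in each array, on levels of 1.67 ± 0.87 and 2.12 ± 0.83 untreated and of 1.07 ± 0.79 and 2.37 ± 0.96 with adriamycin.

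The flattest and the most uneven domains show the range of shapes that the rule joins. The flattest, chr7:144749718-144752787, had a level of 0.72 ± 0.46 (SD over probes) untreated and 1.29 ± 0.41 with adriamycin, and the next, chr19:6991711-6994911, of 1.32 ± 0.38 and 1.48 ± 0.49. Neither top passed 2.0 (1.12 and 1.83 at the first, 1.63 and 1.99 at the second). chr17:23933993-23937137 was similar, at 1.11 ± 0.56 and 0.91 ± 0.34. At the other extreme, chr6:140581905-140585664 had a top of 4.72 untreated and 4.85 with adriamycin that was 693 bp wide in both arrays, on levels of 1.94 and 2.31. High tops also stood in chr6:91440188-91443625, at 4.64 and 4.55, and in chr13:111513100-111517588, at 4.91 and 4.37. Both of these had 2 summits in each array. In the first, 3 adjoining parts were at 2.38, 3.60 and 3.22 untreated, and in the second, part 1 and part 4 were the highest, at 2.33 and 2.60 untreated.

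Raising the threshold inside the domains shortened the bound blocks. A bound block remained at a threshold of 2 in 481 domains untreated and in 451 with adriamycin, and at 3 in 247 and 164. A block of 3000 bp or more was left at 2 in 96 and 65 domains, and at 3 in 11 and 7. The median of the widest block at 2 was 2003 bp untreated and 1660 bp with adriamycin on design 1, and 2072.5 bp and 1825.5 bp on design 2. The rule capped the domains at 5000 bp at a threshold of 1, and a block can only shrink as the threshold rises. These counts are therefore a description and not a finding.

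The dome was present in both channels. Relative to the array median, the domains had a median IP signal of 2.59 untreated and 2.46 with adriamycin and a median input signal of 0.67 and 0.72. On the untreated array of design 1, IP went from 1.31 in step 1 to 3.56 in step 5, while input went from -0.05 to 1.13, so the middle of the domains was brighter than the ends in input DNA as well. Probe length moved with the dome. The share of probes of 50 bases or fewer rose from 31.6% in step 1 to 76.6% in step 5 on design 1 and from 32.9% to 75.6% on design 2, against 30.5% and 30.2% over all probes. On these arrays shorter probes are usually placed in GC-rich DNA so that all probes melt alike. Beyond bound regions, the median short probe stood at 0.03 untreated and 0.16 with adriamycin on design 1, and at 0.08 and 0.25 on design 2. Probes of 60 bases stood at -0.32, -0.30, -0.38 and -0.36 in the same order. The part of input brightness and probe length in the dome was not tested.

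Values inside the domains are also given by probe length, as a description, since the rule chose domains for high probes and set their ends. In the middle of the domains, the 229 probes of 60 bases on design 1 had a median of 1.90 untreated and 1.74 with adriamycin, and the 208 on design 2 of 1.97 and 1.92. Short probes there had 2.41 and 2.11, and 2.37 and 2.21. At the ends the long probes had 1.12 and 0.80 on design 1 and 1.05 and 0.86 on design 2. No domain held a saturated spot, 494 held no probe that was not well above background, and 2 had more than 25% of such probes (chr8:32633385-32636856, difference 0.79, and chrX:107011812-107015217, difference -0.83).

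**Figure D4:**
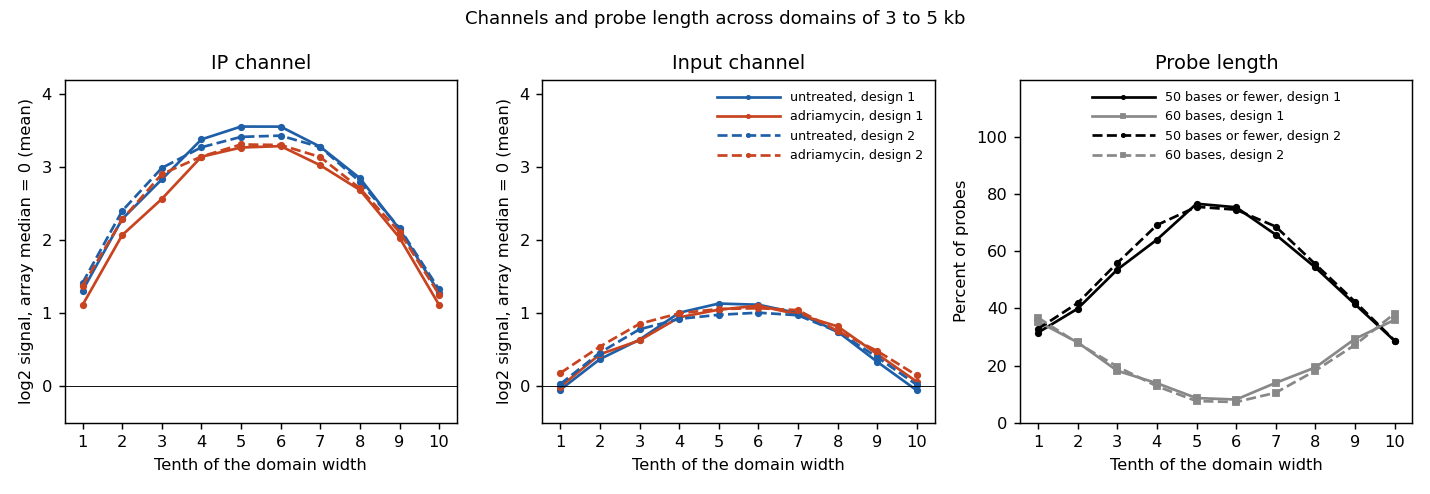
Mean log2 IP signal (left) and input signal (centre) relative to the array median, and the percent of probes of 50 bases or fewer and of 60 bases (right), in each of 10 equal steps of the domain width, untreated in blue and adriamycin in red, design 1 solid and design 2 dashed. IP rises by more than input toward the middle (from 1.31 to 3.56 against -0.05 to 1.13 on the untreated array of design 1), and short probes rise to about 76% there.

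Few domains differed by 2-fold between the conditions. The difference, adriamycin minus untreated, was at least 1 in 5 domains, where 8.65% of all merged regions reached it, and at most -1 in 1 domain, where 23.2% of all regions did. The rule used both arrays, so nothing is read from these shares. These counts move with the processing: loess gave 0 higher, normexp 17 higher and 2 lower, and equal spread 10 higher and 0 lower. The difference lay within 0.5 of 0 in 443 of 541 domains, with a range of -1.04 to 1.28. Its median was -0.29 on design 1 and -0.15 on design 2. It was above 0 in 134 domains (24.8%) and below 0 in 407, where 46.7% of all regions were above 0.

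The direction of this small common shift depends on the scaling. With the arrays scaled to equal spread, 381 domains (70.4%) were above 0 and the median difference was 0.17, against -0.22 in the main setting. With a normexp background it was above 0 in 51.9%, with a capped local background in 48.2%, with loess in 15.0%, and from the authors' deposited log2 ratios in 27.2%. On each design the levels of the domains in the 2 arrays correlated with r = 0.81 and 0.82 over 264 and 277 domains, which share their probes. The difference was also taken at the 1 window with the highest value in either array. It gave 22 domains higher, where 14.2% of all regions were, and 87 lower, where 28.4% were. That window was picked by its own value, which favours the array that was higher there, so these counts are a description. From the IP signal alone, 7 were higher, where 11.6% of all regions were, and 0 were lower, where 3.04% were.

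**Figure D5:**
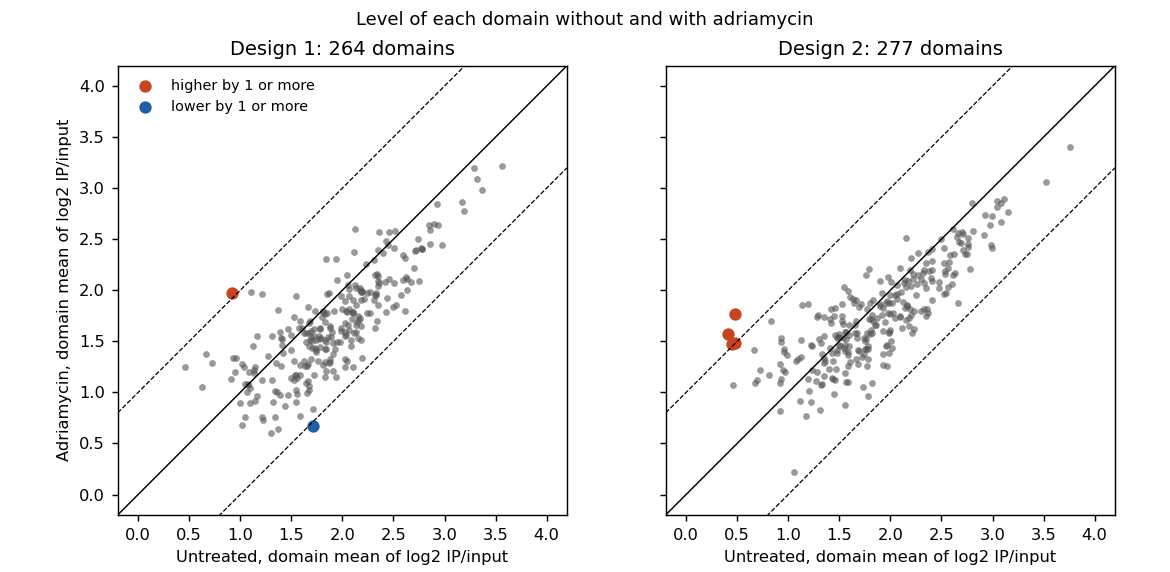
Mean log2 IP/input of each domain with adriamycin (y axis) against untreated (x axis), 264 domains of design 1 (left) and 277 of design 2 (right), with the line of equality and dashed lines at a difference of 1. The 5 domains higher by 1 or more start between 0.41 and 0.92 in untreated cells, and the 1 lower domain goes from 1.72 to 0.67.

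The 6 largest rises, domains with the highest difference, started low in untreated cells. At chr15:101542540-101545832 the level went from 0.48 ± 1.10 (SD over probes) to 1.76 ± 1.01, a difference of 1.28 ± 0.77 over 16 probes (2.44-fold), and 15 of the 16 probes were higher. Its means by part were 0.22, 1.93, -0.35, 0.94 and 0.38 untreated and 1.72, 2.92, 1.13, 1.84 and 1.57 with adriamycin, where part 4 was 1 probe. Its IP signal was higher by 2.22 with adriamycin, and its input signal by 0.98. At chr10:60811492-60814785 the level went from 0.41 ± 1.35 to 1.57 ± 1.19, with all 13 probes higher. Its first part was the highest in both arrays (2.89 and 3.90) but held only 2 probes. These were at 4.36 and 1.41 untreated and at 4.80 and 3.00 with adriamycin. The other 4 parts, of 1 to 4 probes each, went from between -0.35 and 0.35 to between 1.11 and 1.41. The widest bound stretch was 764 bp untreated and 3294 bp with adriamycin, the latter merged from 2 blocks with a gap between them.

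At chr2:165844911-165849076 the level went from 0.92 ± 1.14 to 1.98 ± 1.38, with all 19 probes higher. Its peak went from a top of 3.20 to one of 4.75 at the same window, and its difference was -0.39 in input and 0.67 in IP. chr17:46602956-46606398 went from 0.45 ± 0.82 to 1.47 ± 0.76 with all 16 probes higher, and was the only one of the 541 domains not bound in untreated cells. chr17:27959474-27962683 went from 0.47 ± 0.83 to 1.48 ± 1.07, and chr8:91524847-91528437, below the 2-fold limit, from 1.10 ± 1.10 to 1.98 ± 0.98. Of these 6, IP signal was higher by 0.67 to 2.22 and all had the top at the same window in both arrays. They kept their sign under all 7 alternative ways of computing the values, with the first between 0.75 and 2.23, the third between 0.28 and 1.28 and the sixth between 0.23 and 1.37. The 6 were picked by this difference, which favours low untreated values. The alternatives use the same arrays, so the kept sign is not independent evidence of a rise.

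The 6 largest falls were taken from the 539 domains with at most 25% of probes not well above background, which leaves out chrX:107011812-107015217 (-0.83). At chr1:74723945-74727714 the level went from 1.72 ± 0.51 to 0.67 ± 0.55, a difference of -1.04 ± 0.66, with 2 of 20 probes higher. Its means by part were 1.39, 1.31, 2.21, 1.98 and 1.89 untreated and 0.13, 0.92, 0.67, 0.83 and 0.94 with adriamycin, and its widest bound stretch was 3770 bp untreated and 431 bp with adriamycin. Its difference was -0.93 in IP and 0.11 in input, and every part of it was lower. The next 5 among these were chr6:99690594-99694492, chr5:71977760-71981318, chr3:49851150-49854708, chr4:100273546-100277037 and chr4:33357573-33361949, with differences from -0.88 to -0.81. At chr5:71977760-71981318 the difference of -0.86 ± 0.73 was mostly in the input channel, with 0.73 there and -0.12 in IP. At chr3:49851150-49854708, also -0.86, it was 0.57 in input and -0.27 in IP. These 6 lay on design 1, whose median difference was the lower. All kept their sign under the 7 alternatives, but with a common input the difference was -0.15 at chr5:71977760-71981318 and -0.30 at chr3:49851150-49854708. The falls too were picked by their difference, and the alternatives use the same arrays.

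The bound width was not the same in both conditions. A stretch of 3000 bp or more was bound in 202 domains untreated and in 161 with adriamycin on design 1, and in 199 and 206 on design 2, where the order turned. Over both designs, 275 domains had it in both arrays. That left 126 such domains untreated but not with adriamycin and 92 the other way round, while 48 reached 3 kb by joining both arrays. Levels followed this split by construction. The 126 had medians of 1.72 untreated and 1.32 with adriamycin, and the 92 had 1.43 and 1.58. Domains wide in both arrays were the highest, at 2.19 and 1.97. All 541 domains were bound in the adriamycin arrays and 540 in both, where 35.7% of all regions were bound in both. That share rises with width and is not particular to the domains. It was 13.3% in regions under 1000 bp, 93.7% in those of 2000 to 2999 bp and 100% in those over 5000 bp. The count of 540 moves with the processing: with a normexp background 363 of the 541 were bound in both arrays, and with loess 526.

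A narrow top went with a positive difference in these arrays. In the 42 domains whose top with adriamycin was under 1000 bp wide, the median difference was 0.21 and 29 (69.0%) were above 0. Their tops had medians of 2.80 untreated and 3.39 with adriamycin. In the other 499 the median difference was -0.24, 105 (21.0%) were above 0, and the tops had 3.00 and 2.60. The split uses the adriamycin signal and was chosen after its values were seen, and the height of the top enters both sides of it, so it is a description. At single windows, 220 of the 9890 windows inside domains (2.22%) were higher by 1 or more, where 4.26% of all windows were, and 547 (5.53%) lower, where 5.78% were.

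In level, which the rule ties to width, the domains stood between narrower and wider regions. Regions of 2000 to 2999 bp (761) had median levels of 1.37 untreated and 1.34 with adriamycin, and those over 5000 bp (268) of 2.67 and 2.40, against 1.85 and 1.66 for the domains. Top widths differed less, with 1631 and 1890 bp in the narrower class, 1684 and 2214 bp in the domains and 1713 and 2465.5 bp in the wider class. The share with 1 summit untreated was 88.7%, 77.4% and 27.2% in the same order. The median shoulders of the 3 classes ran from 0.10 to 0.12 untreated and from 0.19 to 0.21 with adriamycin. A side without probes was seen in 23.1%, 44.0% and 84.7%, so the ends of wider regions more often lay at a gap between probes.

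Regions just inside and just outside the width limits were as follows. Of the narrowest, chr12:77451844-77454847 (3004 bp) had levels of 0.99 ± 0.56 and 1.37 ± 0.42, and chr5:71373880-71376884 (3005 bp) of 1.61 ± 0.78 and 1.63 ± 0.84. Just under the limit, chr2:84780118-84783116 (2999 bp wide) had 1.33 ± 1.73 and 0.14 ± 0.67, and chrX:41032185-41035183 (2999 bp wide) had 1.35 ± 1.03 and 1.06 ± 0.72. The widest domains, chr8:11309243-11314224 (4982 bp) and chr13:73724151-73729141 (4991 bp), had 1.83 ± 1.02 and 1.92 ± 0.81 untreated and 1.42 ± 1.07 and 1.60 ± 0.90 with adriamycin. Just above, chr15:72372158-72377179 (5022 bp) and chr14:11136884-11141917 (5034 bp) had 2.58 ± 1.20 and 3.40 ± 1.31 untreated and 2.19 ± 1.06 and 3.07 ± 1.01 with adriamycin.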

How the data were processed

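Per the file headers, Agilent Feature Extraction 10.1.1.1 read the scans. Its processed signals, as deposited, are spot intensities after background subtraction and a linear dye correction per channel. The log2 ratios deposited by the authors as a value table equalled, within 1e-06, those of background-subtracted spot medians, not centred (column medians -0.94 and -1.00 on design 1, -0.93 and -0.45 on design 2, untreated first). The sources used here do not say how that table was made.

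The log2 ratio of processed red over green signal was centred on each array's median, without loess. Control spots, unpositioned probes and outlier spots in either array were left out. Region and summit rules are in the text, and the code was tested on simulated data. Alternatives used limma 3.58.1 in R 4.3.3 (normexp with an offset of 50 on spot medians, since no mean signal was used, and loess). The members and lists were chosen with earlier results of these data known. The domains named, leaving out (except at the width limits) those with over 25% of probes not well above background, are the 6 highest, the 6 largest rises and falls, the 3 flattest, most uneven and richest in summits, and those next to the width limits. Gene lists were not analysed here, as the build of the positions is unknown.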

Additional observations from a re-analysis of the deposited data

How the results depend on the processing

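Precision is limited by the number of arrays. No paired analysis was possible because a design holds a lone array of either condition. Leaving out an array, the slide as a block and the gene lists were not run for the same reason or for want of a build. In the main setting there were 541 domains, 5 higher, 1 lower, a median difference of -0.22 and median levels of 1.85 untreated and 1.66 with adriamycin. Normexp gave 228 domains; over the 541, 17 were higher and 2 lower, with a median difference of 0.17, levels of 0.84 and 0.86 and adriamycin shoulders at 0.056. Normexp with a capped background, added after seeing the data, gave 248 domains, 3 higher, 0 lower, a median difference of -0.016, and levels of 1.02 and 1.04. Loess gave 0 higher and levels of 1.61 and 1.26. Equal spread gave 10 higher, 0 lower, a median difference of 0.17 and levels of 1.71 and 1.84. A common input gave 0 lower, and the authors' deposited log2 ratios gave 2 lower. A threshold of 1.5 left 312 domains, 0 higher, 311 bound in both arrays, with levels of 2.44 and 2.18. A threshold of 2 left 200, 0 higher and 0 lower, 200 bound in both, with levels of 2.84 and 2.57. Windows of 5 probes gave 9 higher, 5 lower and levels of 1.64 and 1.48. A 1.5-fold limit gave 15 higher and 44 lower, and the window with the highest value in either array 22 and 87. The cause of these shifts was not tested. Merging within 250 bp and leaving out dim probes kept every main value within its limits, and of 27 named domains 15 kept the sign of their difference under all 7 value settings.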

Other observations

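Domains lay on every chromosome with more than 204 probes. They made up 7.04% of bound regions on chromosome 13 (29 domains) and 6.76% on chromosome 1 (45), and 2.89% on chromosome 7 (25) and 3.37% on chromosome 17 (16), against 4.83% over all. The 21 domains of chromosome X had a median untreated input signal of -0.46 relative to the array median, while the other chromosomes had 0.43 to 1.05. Their median levels were 1.80 untreated and 1.59 with adriamycin.

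Wider domains were higher within the class, with r = 0.41 on design 1 and 0.43 on design 2 between width and level, over 264 and 277 domains that share arrays and a rule. Mean probe length and level had r = -0.05 and -0.11. In 4 cases a pair of domains lay in 1 tiled stretch, with gaps of 705 to 10080 bp.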
